A study of Pinus pinaster with 8 samples.

Results

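The 6 clones described here were inserts for cellulose synthase (2 clones), sucrose synthase (1 clone) and glycosyltransferases (3 clones) among the 2910 spots of a maritime pine (*Pinus pinaster*) cDNA microarray. They were taken by name from the clones that the study lists as higher in developing compression xylem (Cx) than in developing opposite xylem (Ox) on these same slides. They were thus selected on the ratio between Cx and Ox and on its significance, and that ratio is given as a description that supports nothing. Each of the 6 clones matched 1 spot. No filter on low values was applied here, whereas the study had filtered spots on flags and on signal over background before it listed clones. The stems of 4 field-grown trees, labelled as 25, 35, 28 and 28 years old, were held at 45 degrees from the vertical for 2 months. Cx was scraped from the lower side and Ox from the upper side of the bent stems, so that both shared the bending and neither came from an upright stem. Each slide received amplified RNA of Cx and of Ox at once, with Cx in the dye Cy3 on hybridizations 1 and 2 and Ox in Cy3 on hybridizations 3 and 4. The probes came from a composite library of developing xylem of other, Corsican trees.

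The labels number 8 columns of ratios as trees 1 to 4 in each dye orientation, but the columns formed 4 near-identical pairs. Over the 2910 spots, which are not independent replicates, the columns of a pair correlated at r from 0.969 to 0.984, against 0.843 to 0.875 between slides of one orientation. Between slides of opposite orientation r was lower, at 0.635 to 0.791, and the cause was not tested. The 2 columns of a pair were taken as the 2 copies of the array on a slide and averaged, so that n is 4 hybridizations. The study's methods state that the 4 hybridizations used samples of different individual trees. Which tree each hybridization was made from is not settled by the labels, and the spread between hybridizations may be partly technical. The columns hold ratios without intensities, so that no level of a clone, and no marker of the labelled tissue, could be checked, and the number of arrays limits the precision.

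Cellulose synthase sits in rosette complexes of the plasma membrane and joins glucose from UDP-glucose into the glucan chains of cellulose. Sucrose synthase splits sucrose with UDP into fructose and UDP-glucose, and is one of the enzymes that supply the glucosyl donor in developing wood. Glycosyltransferases move sugars from nucleotide sugars to acceptors, and those of the Golgi apparatus build hemicelluloses and pectins. Compression wood, which conifers lay down on the lower side of leaning stems, has rounded tracheids with thick walls that are rich in lignin and galactan and poor in cellulose.

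The sequences of 5 of the 6 inserts are shown in part, to let a reader see what the spots carried and how far the clones resemble each other. GEM-036-G12 and GEM-032-E10 come first, because the study assembled both in the same contig and they had unlike ratios. Their shared stretch, bases 1 to 85 of GEM-036-G12 and bases 315 to 399 of GEM-032-E10 as read here, is written with the differing bases in capitals.
GEM-036-G12: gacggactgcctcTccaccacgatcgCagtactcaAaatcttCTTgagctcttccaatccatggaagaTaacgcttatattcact
GEM-032-E10: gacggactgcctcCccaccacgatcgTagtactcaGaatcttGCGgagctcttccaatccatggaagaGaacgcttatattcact
Of these 85 bases 78 were identical (91.8%) and 7 differed. Counted from the first base of GEM-036-G12, with its base first, the differences were T14C, C27T, A36G, C43G, T44C, T45G and T69G. GEM-036-G12 had no stop in its first frame over 399 bases, and in that frame 5 of the 28 complete codons of the stretch differed. Codon 15 held 3 of the differences, 3 others lay at base 3 of a codon and 1 at base 2. GEM-032-E10 had at least 1 stop in each forward frame of the 399 bases read. The 2 reads were thus similar but not identical in the stretch compared. It ends where the 577-base read of GEM-032-E10 was shortened, so that the inserts may share more. Sequencing errors were not assessed, and whether a target of one also bound the other's spot was not tested.

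The next clones are shown by the start of their reads, 5′ to 3′. GEM-026-B12 is a cellulose synthase that joined no contig, and GEM-066-B03 is the sucrose synthase.
GEM-026-B12: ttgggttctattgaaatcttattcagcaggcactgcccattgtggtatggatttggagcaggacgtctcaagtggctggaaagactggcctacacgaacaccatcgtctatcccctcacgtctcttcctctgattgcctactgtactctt
GEM-066-B03: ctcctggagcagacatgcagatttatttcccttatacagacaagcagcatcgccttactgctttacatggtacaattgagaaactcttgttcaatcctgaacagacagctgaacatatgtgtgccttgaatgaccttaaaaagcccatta
These are the first 150 bases of each. Frame 1 of GEM-026-B12 held no stop over all 399 bases read, nor did frame 3 of GEM-066-B03 over 396 bases. GEM-066-B03 aligned on the opposite strand with another clone of the same sucrose synthase contig, with 304 of 333 bases identical (91.3%). The remaining clones of that contig did not align with GEM-066-B03 in the bases read. GEM-033-D03, which the study places in carbohydrate-active enzyme family GT8, is shown up to the first stop of its open frame, in capitals.
GEM-033-D03: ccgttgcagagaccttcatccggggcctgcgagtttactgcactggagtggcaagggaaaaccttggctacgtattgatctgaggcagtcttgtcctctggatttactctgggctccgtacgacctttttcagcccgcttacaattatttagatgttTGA
The stop ended at base 160, and 239 of the bases read lay after it. GEM-037-D08, described as a cellulose synthase catalytic subunit, was the shortest insert read, at 133 bases and 35.3% GC, and had at least 1 stop in every forward frame. The reads of the other 5 clones were 434 to 663 bases long, with 41.9 to 48.9% GC over the 399 bases read here. No other pair of the 6 clones aligned, so that the 2 cellulose synthase spots shared no stretch in the bases read.

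All ratios are log2(Cx/Ox), positive where Cx was higher. The study expresses its ratios the other way, as Ox over Cx, and the dye direction was set through its table of clones because the wording of its methods on Cy3 and Cy5 does not settle it. A ratio in scraped tissue does not tell more cells of a type from more RNA per cell. On every hybridization all 6 clones were above 0. The median of their means was 0.85, beside -0.01 over all spots. By the limma robust fit at an adjusted p of at most 0.05 (Benjamini-Hochberg over 2910 spots) and 1.5-fold, 5 of the 6 were called higher in Cx, where 9.14% of all spots (266) were so called and 97 spots were called lower. Nothing is read from that count, since this contrast selected the clones.

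**Figure D1:**
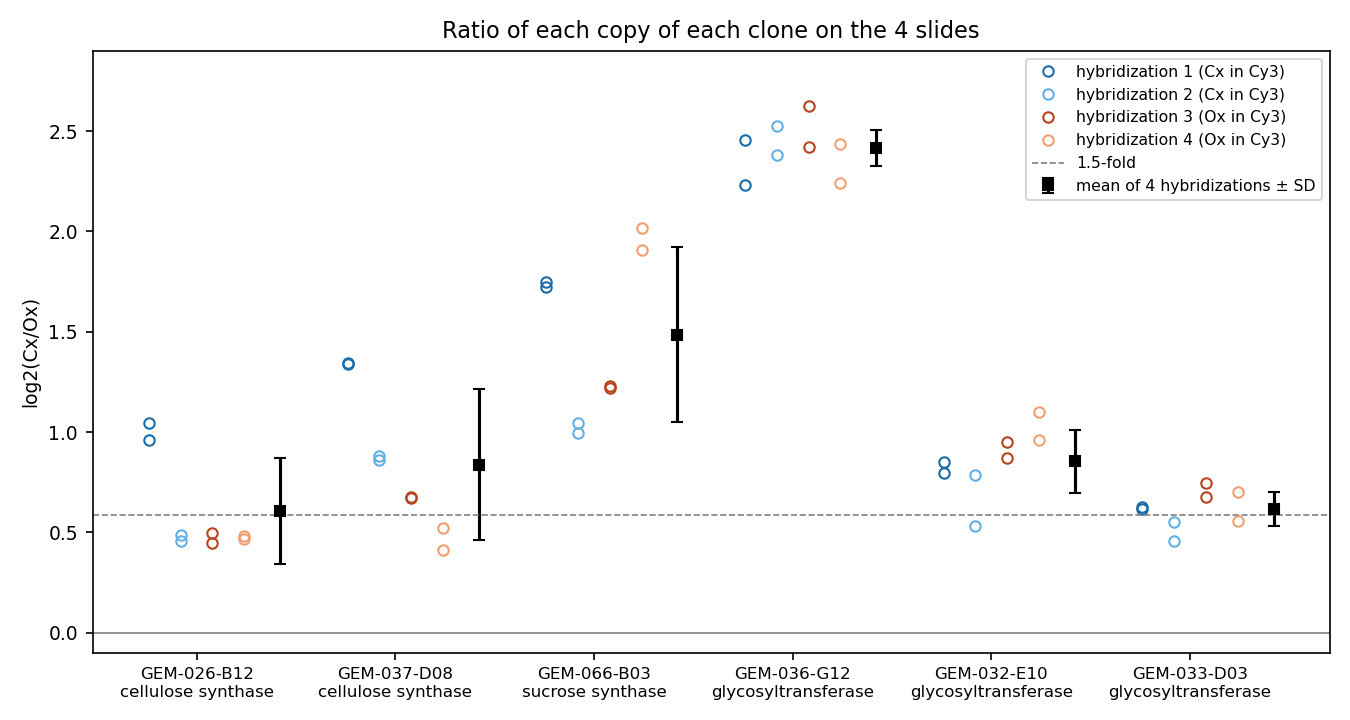
Each open circle is log2(Cx/Ox) of 1 copy of a clone on 1 slide, coloured by hybridization, and each square is the mean of the 4 hybridizations with its SD. Every circle is above 0, GEM-036-G12 is the highest clone on each slide, and hybridization 1 stands apart for GEM-026-B12.

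The sucrose synthase clone GEM-066-B03 had a log2(Cx/Ox) of 1.73, 1.02, 1.23 and 1.96 on hybridizations 1 to 4. Its high values came from hybridizations 1 and 4, which have opposite dye orientations, and its low values from 2 and 3. The mean was 1.49 ± 0.44 (SD, n = 4), or 2.80-fold higher in Cx with a range from 2.03-fold to 3.89-fold. The mean ranked 45 of 2910 spots, and 94.0% of all spots had a lower SD, so that this clone was among the more variable ones.

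The cellulose synthase clone GEM-026-B12 had a log2(Cx/Ox) of 1.00, 0.47, 0.47 and 0.47 on hybridizations 1 to 4. Hybridization 1 alone was high, while the other 3 hybridizations lay within 0.0027 of each other. Both copies on that slide were high, at 1.05 and 0.96, beside 0.45 to 0.50 for the 6 copies on the other slides. The mean was 0.61 ± 0.26 (SD, n = 4), or 1.52-fold higher in Cx, and the rank of the mean was 278. Without hybridization 1 the mean was 0.47, or 1.39-fold. The robust fit gave the high slide little weight, with an estimate of 0.47 as well, and GEM-026-B12 was therefore the clone of the 6 that was not called at 1.5-fold.

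The other cellulose synthase clone, the catalytic subunit GEM-037-D08, had a log2(Cx/Ox) of 1.34, 0.87, 0.67 and 0.47 on hybridizations 1 to 4. Both slides with Cx in Cy3 were above both slides with Ox in Cy3. GEM-032-E10 and GEM-033-D03 were also separated by orientation, but in the other direction. How many of all spots were so separated was not counted. The mean of GEM-037-D08 was 0.84 ± 0.37 (SD, n = 4), or 1.79-fold, and the range ran from 1.38-fold to 2.53-fold. Among the 2910 spots it ranked 87 on hybridization 1 and 367 on hybridization 4. It was no longer among the called clones when hybridization 2 or hybridization 3 was left out. The 2 cellulose synthase clones shared their highest slide but not the order of the rest, and on hybridization 4 they were equal at 0.47.

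GEM-036-G12 was the glycosyltransferase with the highest ratio of the 6 clones, at a log2(Cx/Ox) of 2.34, 2.45, 2.52 and 2.34 on hybridizations 1 to 4. No slide stood apart. The mean of 2.41 ± 0.09 (SD, n = 4) corresponded to 5.33-fold higher in Cx, from 5.06-fold to 5.74-fold, and ranked 11 of 2910. A share of 13.2% of all spots had a lower SD, and 5 of the 226 clones that the study lists as higher in Cx and that were matched to a spot had a higher mean. Its copies differed about as much as its slides did, with copy 1 above copy 2 by 0.145 to 0.225 on all 4 slides.

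GEM-032-E10, of the same contig, had a log2(Cx/Ox) of 0.82, 0.66, 0.91 and 1.03 on hybridizations 1 to 4, all over 1.5-fold. The mean was 0.86 ± 0.16 (SD, n = 4), or 1.81-fold, which ranked 156. GEM-036-G12 exceeded GEM-032-E10 by 1.52, 1.79, 1.61 and 1.31 on hybridizations 1 to 4, on average by 1.56 ± 0.20 (SD, n = 4). Expressed as a ratio of the 2 ratios this was 2.94-fold, so that the spots of 1 contig had unequal differences between Cx and Ox on every slide.

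The GT8 clone GEM-033-D03 had the ratios 0.62, 0.50, 0.71 and 0.63 on hybridizations 1 to 4. Hybridization 2 was the lowest and the only slide under 1.5-fold, which is 0.58 on the log2 scale. The mean was 0.62 ± 0.09 (SD, n = 4), or 1.53-fold, and 12.03% of all spots had a lower SD. Its mean, at rank 273, thus lay close to that of GEM-026-B12, but with all 4 slides alike.

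The order of the 6 clones by mean was GEM-036-G12, GEM-066-B03, GEM-032-E10, GEM-037-D08, GEM-033-D03 and GEM-026-B12. GEM-036-G12 was first and GEM-066-B03 was second on each hybridization. The neighbours GEM-032-E10 and GEM-037-D08, with means of 0.86 and 0.84, and GEM-033-D03 and GEM-026-B12, with 0.62 and 0.61, differed by less than their SDs, and each of these pairs changed places between slides. At the 1.5-fold limit by mean, which 287 spots reached, GEM-026-B12 at 0.61 and GEM-033-D03 at 0.62 were just inside. The nearest matched clone outside the limit had a mean of 0.58, and 9 spots lay between the limit and GEM-026-B12. The medians over the 6 clones were 1.17, 0.77, 0.81 and 0.83 on hybridizations 1 to 4, beside 1.06, 0.87, 0.94 and 0.83 over the 226 listed clones and 0.01 to 0.03 over all spots. Hybridization 1 was the highest slide for 109 of those 226 clones (48.2%).

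**Figure D2:**
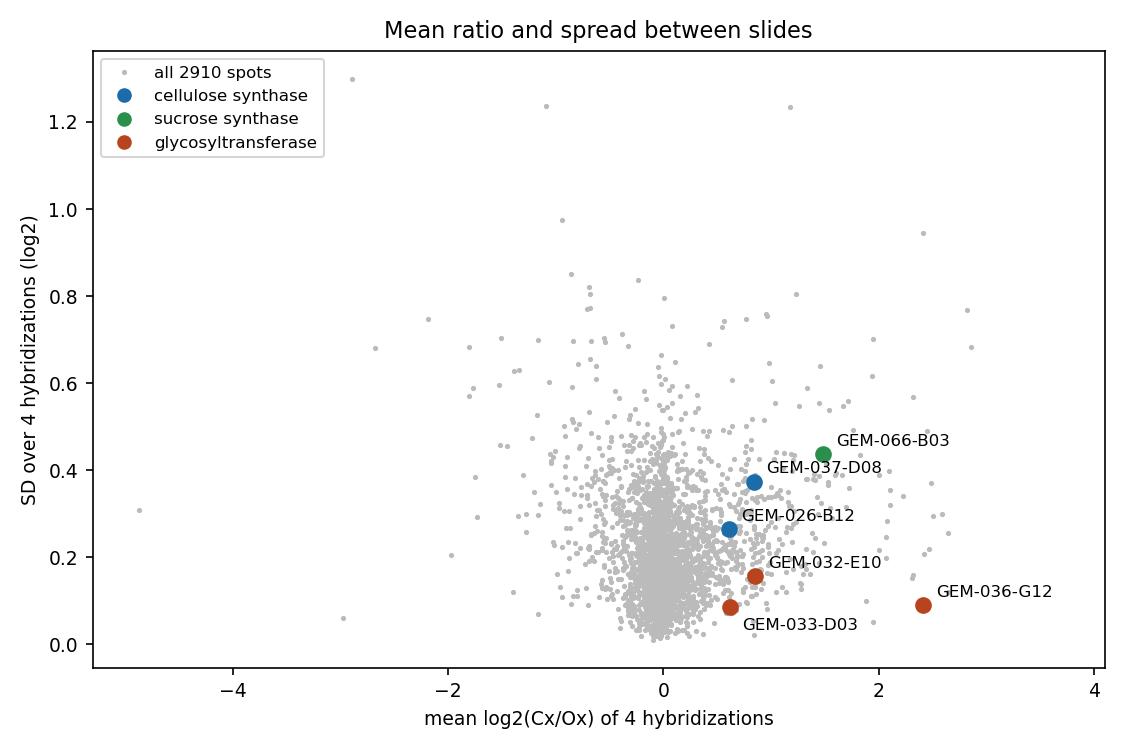
Each grey dot is 1 of the 2910 spots, with its mean log2(Cx/Ox) of 4 hybridizations on the x axis and the SD over them on the y axis, and the 6 clones are coloured by family. The 3 glycosyltransferases have SDs of 0.16 or less and lie below the 2 cellulose synthases and the sucrose synthase, whose SDs are 0.26 to 0.44.

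How the ratio varied between slides was set apart from its mean in a pair of further tests. The choice of the clones rested on a significance limit as well as on the mean, so that the spread between slides also entered that choice. The first test compared the dye orientations, as the mean with Ox in Cy3 minus the mean with Cx in Cy3. The orientations lay on different slides, and the tree of each slide is not settled. Dye, slide and tree thus cannot be told apart in this difference. It was fitted in limma by least squares, and 0% of the spots (0 of 2910) passed an adjusted p of 0.05. At an unadjusted p below 0.05 there were 1091 spots, so that the lack of calls does not show that the orientations agreed. None of the 6 clones passed, and 1 was below 0.05 before adjustment. That clone was GEM-037-D08, with 0.57 with Ox in Cy3 and 1.11 with Cx in Cy3, a difference of -0.54 (SE 0.190, adjusted p = 0.121). Its difference stayed below 0 when any 1 hybridization was left out. For GEM-026-B12 the difference was -0.26 (SE 0.195, adjusted p = 0.377), but it came from hybridization 1 alone and was 0.0026 without that slide.

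GEM-066-B03 averaged 1.59 with Ox in Cy3 and 1.38 with Cx in Cy3, a difference of 0.22 with the largest error of the 6 (SE 0.349, adjusted p = 0.684). Its sign turned with the slides used, at -0.14 without hybridization 2 and -0.15 without hybridization 4. GEM-032-E10 averaged 0.97 with Ox in Cy3 and 0.74 with Cx in Cy3 (0.23, SE 0.109, adjusted p = 0.196). GEM-036-G12 was nearly the same in both orientations, at 2.43 with Ox in Cy3 and 2.40 with Cx in Cy3 (0.03, SE 0.111, adjusted p = 0.855), and here too the sign turned, to -0.02 without hybridization 1 and -0.06 without hybridization 3. GEM-033-D03 differed by 0.11 (SE 0.0981, adjusted p = 0.466). With 4 hybridizations, differences of these sizes could not be told from the spread between slides of 1 orientation.

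The second test compared the slides of 1 orientation with each other, hybridization 1 minus 2 and hybridization 3 minus 4, against the spread of the 2 copies on a slide in limma's moderated F test. That spread is technical, and the slide, the tree and the labelled target cannot be told apart. The test called 60.4% of all spots (1757), and 3 of the 6 clones, the sucrose synthase and both cellulose synthases. Among the 226 listed clones it called 200 (88.5%). GEM-066-B03 had the largest difference of the 6, at 0.71 between hybridizations 1 and 2 and -0.74 between 3 and 4 (F = 239, adjusted p = 4.11e-06). GEM-026-B12 differed by 0.53 between hybridizations 1 and 2 and by less than 0.01 between 3 and 4 (F = 69.4, adjusted p = 8.94e-05). GEM-037-D08 differed in the same direction on both pairs, by 0.47 and 0.21 (F = 63.3, adjusted p = 0.000111).

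The 3 glycosyltransferase clones did not pass this test, which does not show that their slides agreed. The fit had no term for the copy, so that an offset between copies counted as spread. On all 4 slides GEM-036-G12 had copy 1 above copy 2, by 0.145 to 0.225. GEM-036-G12 had differences of -0.11 and 0.18 (F = 2.19, adjusted p = 0.219), GEM-032-E10 of 0.16 and -0.12 (F = 2.92, adjusted p = 0.150) and GEM-033-D03 of 0.12 and 0.08 (F = 2.99, adjusted p = 0.143). Their copies also lay further apart, with copy SDs of 0.138, 0.108 and 0.0667, beside 0.0381 to 0.0424 for the cellulose and sucrose synthase clones and a median of 0.0497 over all spots. When each column was centred and scaled, all 3 passed as well, with adjusted p of 0.00268 for GEM-036-G12, 0.0318 for GEM-032-E10 and 0.00675 for GEM-033-D03, so that their result depended on the scaling.

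**Figure D3:**
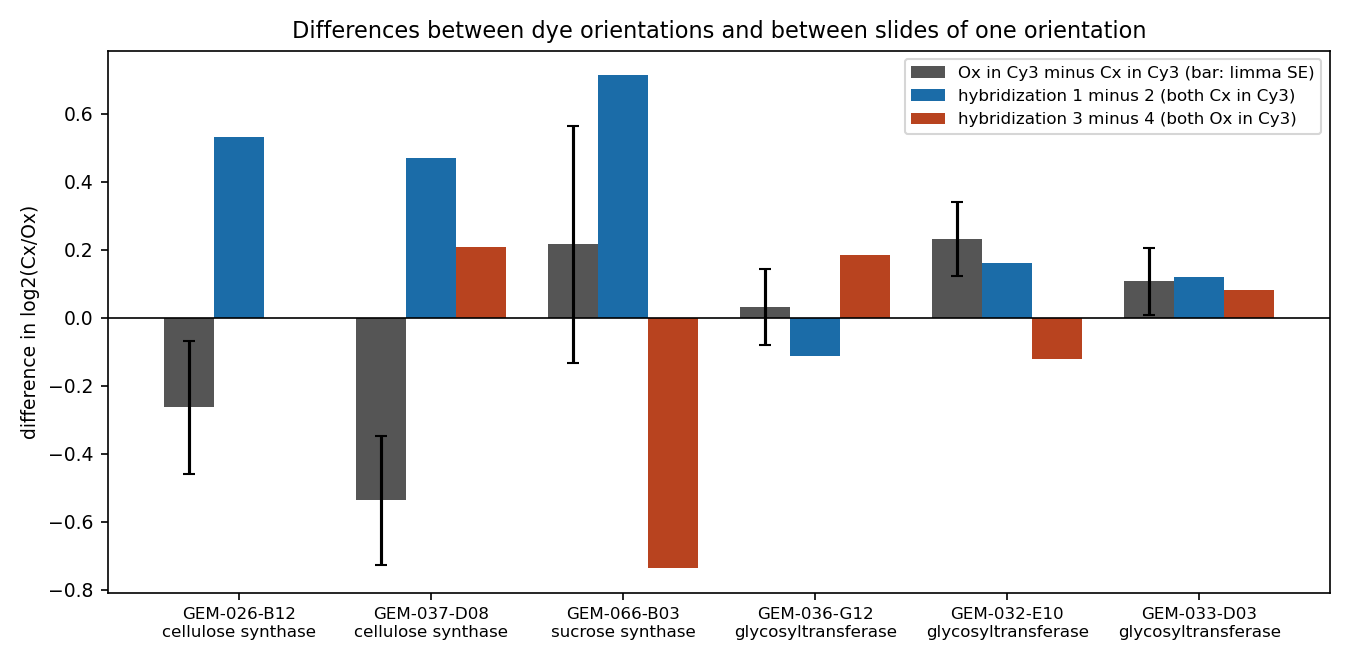
Bars show, for each clone, the difference in log2(Cx/Ox) between dye orientations (grey, with the limma SE) and between the slides of 1 orientation (blue and red). The longest bars are the slide differences of GEM-066-B03, at 0.71 and -0.74, and the longest grey bar is that of GEM-037-D08, at -0.54.

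Other clones for enzymes of sugar metabolism, called the sugar route here, were set beside the 6. The group was every clone of this array that the study describes as fructokinase, phosphoglucomutase, UDP-glucose dehydrogenase, UDP-glucuronosyltransferase, exostosin family, starch synthase or alpha-galactosidase, 11 clones in all. The study describes only clones that it had called different between Cx and Ox on these slides, so that an unchanged clone of these enzymes could not enter. Their calls and directions are thus not independent evidence, and nothing is read from the count of calls. In the limma robust fit 10 of the 11 were called higher and 1 lower in Cx, where 9.14% of all spots were called higher, and the median of the means was 0.90. All 11 also differed between slides of 1 orientation, as did 60.4% of all spots and 88.5% of the listed clones.

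Fructokinase phosphorylates the fructose that sucrose synthase releases. The fructokinase clone GEM-001-D03 had a log2(Cx/Ox) of 2.76, 2.31, 2.92 and 2.37 on hybridizations 1 to 4, a mean of 2.59 ± 0.30 (SD, n = 4) or 6.01-fold. The second fructokinase clone, GEM-009-A08, had 1.79, 1.57, 1.77 and 0.99, with hybridization 4 low and a mean of 1.53 ± 0.37. Its mean was near that of the sucrose synthase clone, but GEM-066-B03 was highest on hybridization 4, where GEM-009-A08 was lowest.

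Phosphoglucomutase interconverts glucose 1-phosphate and glucose 6-phosphate. Its 3 clones, GEM-066-F09, GEM-083-F04 and GEM-109-E12, averaged 0.73 ± 0.35, 0.62 ± 0.17 and 0.67 ± 0.31 (SD, n = 4). All 3 were highest on hybridization 3, at 1.14, 0.78 and 1.04, and lowest on hybridization 4, at 0.29, 0.39 and 0.29. UDP-glucose dehydrogenase, which oxidizes UDP-glucose to UDP-glucuronic acid on the way to hemicellulose and pectin precursors, was present as GEM-022-C10 with 1.76, 1.53, 1.15 and 0.91 and a mean of 1.34 ± 0.38. As for GEM-037-D08, both slides with Cx in Cy3 were above both slides with Ox in Cy3. The same held for the exostosin family clone GEM-046-B07 and the starch synthase clone GEM-025-H07.

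Of the transferases outside the 6, the UDP-glucuronosyltransferase clone GEM-112-D05 averaged 1.30 ± 0.16, between the means of GEM-036-G12 and GEM-032-E10. The exostosin family clones GEM-048-H08 and GEM-046-B07, named for GUT1, averaged 0.90 ± 0.17 and 0.64 ± 0.20. The alpha-galactosidase clone GEM-021-B11, for an enzyme that removes terminal galactose, had 0.72, 1.11, 1.02 and 1.43 with a mean of 1.07 ± 0.29. The starch synthase clone GEM-025-H07, for an enzyme that draws ADP-glucose into starch, was the single clone of the 11 below 0, at -0.30, -0.69, -1.15 and -0.91 and a mean of -0.76 ± 0.36.

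**Figure D4:**
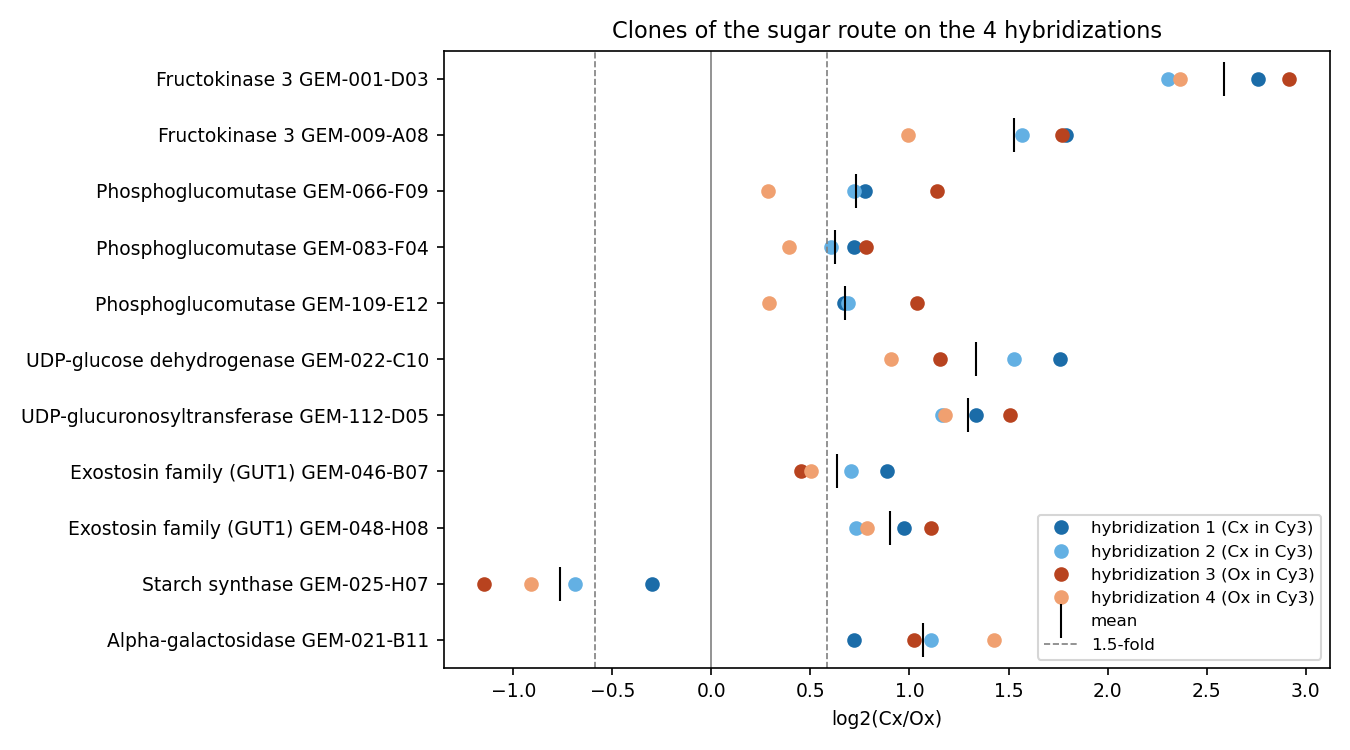
Each row is 1 clone of the sugar route, each dot its log2(Cx/Ox) on 1 hybridization, and the vertical tick its mean of 4 hybridizations. All dots of 10 clones are above 0, those of the starch synthase clone are below 0, and the 3 phosphoglucomutase clones share hybridization 4 as their lowest.

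For each of the 6 clones, the described clones with the most similar ratios over the 4 hybridizations were looked up among 252 candidates, by the Euclidean distance on the log2 scale. GEM-026-B12 was nearest to GEM-090-B02, a fasciclin-like arabinogalactan protein, a class of cell surface glycoproteins (distance 0.147). That clone too was high on hybridization 1 alone, at 1.04 beside 0.41, 0.58 and 0.54. The next was the exostosin family clone GEM-046-B07 (0.263), which was not, with 0.89 and 0.70 on hybridizations 1 and 2. GEM-037-D08 was nearest to GEM-069-D11, the glycolytic enzyme triosephosphate isomerase (0.160), and then to GEM-006-C11, 4-coumarate:CoA ligase of the phenylpropanoid route (0.193). Both had the same order of slides as GEM-037-D08, with hybridization 1 highest and 4 lowest.

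GEM-066-B03 was nearest to GEM-054-C09, 6-phosphogluconate dehydrogenase of the pentose phosphate pathway (0.184), which had 1.80, 1.12, 1.33 and 1.88 and was likewise high on hybridizations 1 and 4. The next, GEM-070-D08, a beta tubulin, was further off (0.523). GEM-036-G12 was nearest to GEM-038-D05, a lysine and histidine transporter (0.287), and GEM-005-D11, methionine synthase (0.360). GEM-033-D03 was nearest to GEM-004-A04, a beta tubulin, the subunit of microtubules (0.119), and GEM-086-G02, malate dehydrogenase (0.148). The clones nearest to GEM-032-E10, GEM-109-A09 (0.173) and GEM-085-G09 (0.181), have no described function. For each of the 6 clones the first named here was also the nearest of all spots on the array.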

How the data were processed

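Compression and opposite xylem were hybridized together on 4 two-colour slides. The authors deposited log2 ratios, which they had made by quantifying spots in GenePix, correcting background with normexp and normalizing by print-tip loess in limma 2.14.5 under R 2.7.1, without scaling between arrays. Their filters on flags and on signal over background were not applied to the deposited table. It has 2910 spots, 8 columns and 0 missing values, and 0 columns were left unused. Other columns of the study's tables hold its own fold changes and p-values, used only as a key: a spot was given a clone's name where the columns, turned to one direction and averaged, gave the printed value. This named 2069 spots and left 841 unnamed. Of 1999 printed values used, 1996 matched 1 spot and 3 matched several, and those 3 gave no name. Another 73 clones were matched through the list of described clones. The printed values used were fewer than the spots the study kept, so that some unnamed spots may lack a name for that reason.

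Columns were turned to log2(Cx/Ox) and the copies on a slide averaged. To check whether equal tree numbers mark pairs, each column's deviation from the mean of its dye orientation was correlated with that of its namesake, and r was 0.00, -0.03, -0.02 and -0.01 for numbers 1 to 4, so that they were not taken as pairs. In limma 3.58.1 (R 4.3.3, statmod 1.5.0) each spot was fitted with a robust intercept-only model (at most 200 iterations), with a tissue and a dye term by least squares, and with a mean per slide, all with empirical Bayes moderation and Benjamini-Hochberg adjustment over 2910 spots. The fits were tested on simulated data. Values with ± are plain means. Alternatives were least squares, a replicate block by tree number, copies as a random block, leaving out each hybridization, centring, scaling, each dye orientation alone and named spots alone.

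Clones were named by rule: the 6 clones, the 11 of the sugar route, and the 2 nearest described clones of each of the 6. The clones and lists were chosen with earlier results of these data known. Sequences and descriptions are those of the study's table of clones, in which 5 of the 6 reads are shortened to 399 bases. They were aligned locally on both strands with Biopython 1.88 (match 2, mismatch -3, gap opening -5, extension -2, minimum score 60), within the 6 and with other clones of the same description. No genome or annotation was used. Python 3.11.15, numpy 2.4.6, pandas 2.3.3 and matplotlib 3.10.9 were used.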

Additional observations from a re-analysis of the deposited data

Results flagged for a closer look

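The ratio of GEM-026-B12, a cellulose synthase clone, on hybridization 1 stood far from the other hybridizations. Its log2(Cx/Ox) was 1.00 there, and the gap to the nearest other slide made up 0.995 of the whole range, above the critical value of Dixon's test. The other 5 clones had gaps of 0.242 to 0.571 of their range. The cause was not tested.

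Slides of 1 dye orientation differed, against the spread of the copies, for the cellulose synthase clones GEM-026-B12 (0.53 between hybridizations 1 and 2) and GEM-037-D08 (0.47 between hybridizations 1 and 2) and for the sucrose synthase clone GEM-066-B03 (-0.74 between hybridizations 3 and 4). The same test called 60.4% of all spots, and tree, target and slide cannot be told apart.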

How the results depend on the processing

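The mean log2(Cx/Ox) of all 6 clones stayed above 0 under every alternative run. The number of the 6 called higher in Cx was 5, and 6 by least squares, with the replicate block, with copies as a random block or without hybridization 4, where GEM-026-B12 passed 1.5-fold too. Without hybridization 2 or 3 it stayed at 5, but GEM-026-B12 was called and GEM-037-D08 was not. It was 4 with either dye orientation alone, without GEM-026-B12 in both. With Ox in Cy3 alone 196 spots were called lower in Cx, against 97 with all slides, and the cause was not tested. Without each hybridization in turn the total of spots called, 363 with all, was 277 to 401. The replicate block by tree number gave 410 spots. For the dye effect it called 1535 spots and 1 of the 6 clones (GEM-037-D08, -0.54, adjusted p = 0.00389), where the slides gave 0. Columns with the same number are not shown to be pairs, and the block counts near-copies of 1 slide as separate trees. With columns centred and scaled, the slide difference was called for 6 of the 6 clones instead of 3. The sign of a dye difference that had not passed the test turned on leaving out 1 hybridization for GEM-026-B12 (-0.53 to 0.0026), GEM-066-B03 (-0.15 to 0.58) and GEM-036-G12 (-0.0591 to 0.125). No log2(Cx/Ox) of the 6 clones changed sign. The 4 slides and the absence of intensities limit all values.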
